A study of Mus musculus with 6 samples.

Results

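The genes described here are 10 hypoxia target genes, *Ak4*, *Slc2a1*, *Pgk1*, *Ldha*, *Pfkfb3*, *Bnip3*, *Egln3*, *Pdk1*, *Ankrd37* and *Car9*, out of 34745 genes listed for each library. *Ak4* was chosen by its values in these libraries, because it was low in the KO libraries and because the WT libraries differed from each other. Its level is therefore given as a description without a test. The other 9 were taken as genes widely used as markers of low oxygen, to ask whether the spread of *Ak4* among the WT libraries was shared. All 10 genes had enough counts to enter the test across all genes, which was run on 14084 genes.

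The cells were cardiac fibroblasts from the left ventricle, isolated on Day 7 after myocardial infarction (MI), in which the left anterior descending coronary artery was tied off. The donors were male mice operated on at 8 to 10 weeks of age. The KO group carries a CRISPR/Cas9 deletion that takes the JmjC domain out of *Kdm5b*, a gene for a histone H3K4 demethylase, and the WT group holds littermates without it. Both groups had the same MI, no group was without MI, and each group has 3 libraries. It is not stated whether each library came from a separate animal, so the tests measure the spread between libraries, which may be technical.

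Libraries held 12025403 to 15329427 counts on genes. *Kdm5b* itself had 98.1, 107 and 105 CPM (counts scaled to a common library total) in the KO libraries and 108, 129 and 123 CPM in the WT libraries, a difference of -0.22 on the log2 scale (adjusted p = 0.0574 from edgeR). The count covers the whole gene and does not show the deleted part on its own, so the labels were not borne out by the level of the targeted gene. KO and WT therefore mean the libraries labelled so, in every direction given here. The fibroblast label was read against 12 fibroblast markers, which were all counted, with summed levels of 26813 to 31270 CPM in the KO libraries and 37501 to 39927 CPM in the WT libraries. Most of each sum came from the collagen genes on the list.

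Hypoxia target genes are switched on when oxygen is short. Hypoxia-inducible factors (HIFs), each a pair of an oxygen-labile alpha subunit and the stable partner ARNT, then escape hydroxylation by the EGLN enzymes and bind short sites in promoters and enhancers. Their targets raise glucose uptake and glycolysis, hold pyruvate back from mitochondria, remove mitochondria and feed back on oxygen sensing, and many of them are known to rise in ischemic heart tissue. *Ak4* encodes an adenylate kinase of the mitochondrial matrix and is a known HIF target.

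*Ak4* (ENSMUSG00000028527, mm10, chromosome 4 from 101419277 to 101466995, + strand) was present at 2 levels in the WT libraries. WT replicates 1, 2 and 3 had 563, 651 and 130 counts, which are 39.4, 44.4 and 9.24 CPM after TMM normalization. The KO libraries had 71, 84 and 126 counts, or 5.81, 6.30 and 8.12 CPM. WT replicate 3 was thus close to the KO libraries, with a counting interval (exact Poisson, 95%, which covers counting error only) of 7.72 to 10.97 CPM that overlaps the 6.77 to 9.67 CPM of KO replicate 3, while WT replicates 1 and 2 were far above both. The deposited FPKM values, which divide by gene length and library total, had the same order, with 6.60, 7.41 and 1.55 in the WT libraries and 0.9995, 1.07 and 1.39 in the KO libraries. Every KO library was still below every WT library, and the fitted KO minus WT difference was -2.19 on the log2 scale (standard error 0.51). It was -2.63 without WT replicate 3 and -1.84 without WT replicate 2.

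**Figure D1:**
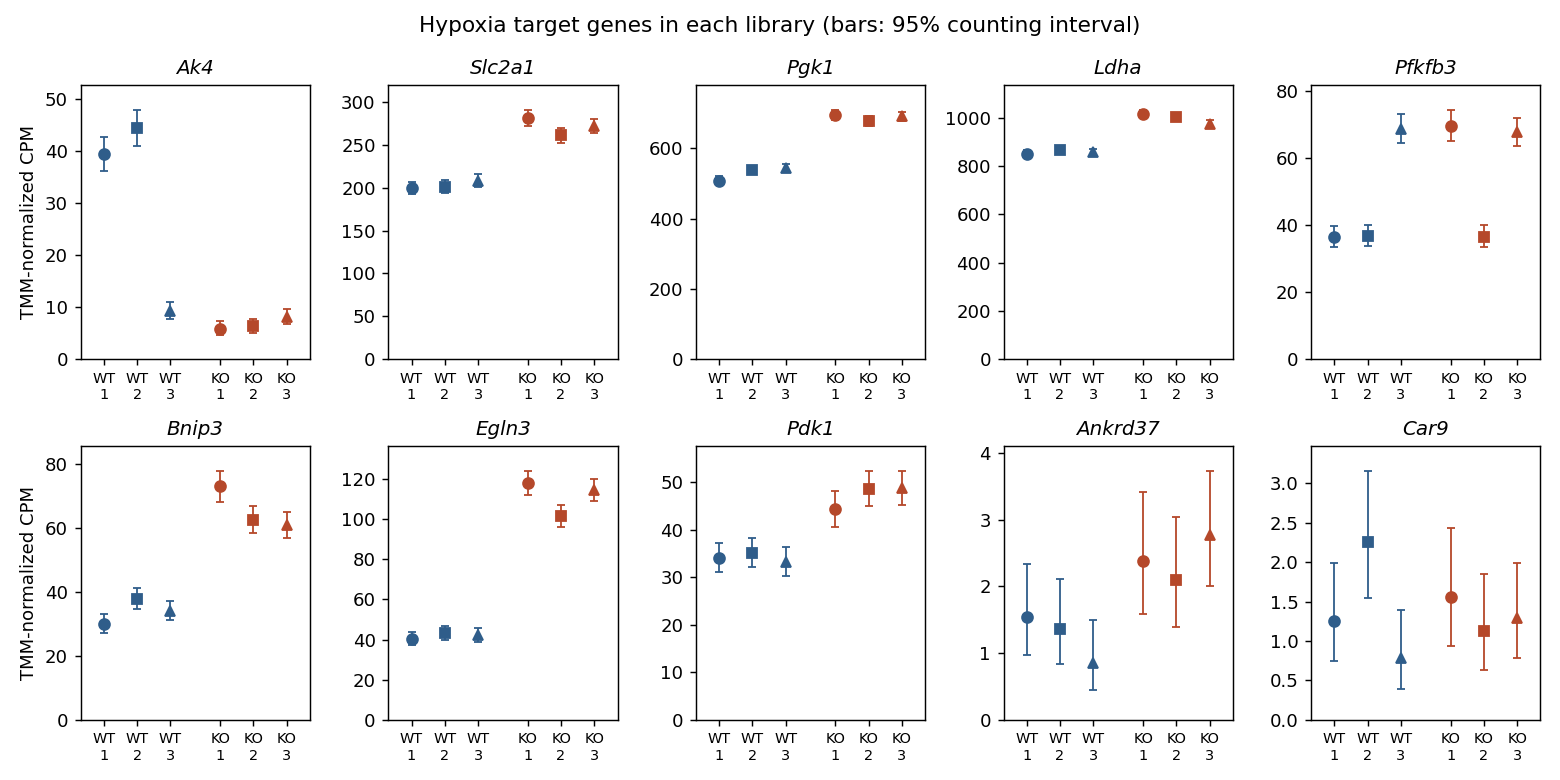
TMM-normalized CPM (y axis, linear from 0) of the 10 genes in each of the 3 WT (blue) and 3 KO (red) libraries, where bars are exact 95% Poisson counting intervals and the marker shape gives the replicate number. WT replicate 3 lies near the KO libraries for *Ak4* at 9.24 CPM, stands with the other WT libraries for *Egln3*, *Bnip3*, *Slc2a1*, *Pgk1*, *Ldha* and *Pdk1*, and stands with KO replicates 1 and 3 for *Pfkfb3*.

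The short core of a HIF site reads ACGTG or GCGTG on either strand, and the promoters were searched for these letters because the members are grouped as HIF targets. Promoter windows from RefSeq (GRCm38.p6, 250 bases before to 50 after a start site) were found for all 10 genes, and for each gene the window nearest to its listed start was used, which for *Ldha* lies 4329 bases from that start. All 10 windows held at least 1 match, where 43.8% of the 32851 windows of all genes did. *Pdk1* had 2 windows, of which only the 1 used held a match. The matches are letters in a window and not shown to be bound. The windows of *Ak4*, of the 2 members with the largest well-counted differences, *Egln3* and *Bnip3*, and of *Pfkfb3* are shown here 5′ to 3′ on the gene's strand, with the matches in capitals (CACGT and CACGC are the same letters on the other strand).
*Ak4*, chr4:101419039-101419338, + strand: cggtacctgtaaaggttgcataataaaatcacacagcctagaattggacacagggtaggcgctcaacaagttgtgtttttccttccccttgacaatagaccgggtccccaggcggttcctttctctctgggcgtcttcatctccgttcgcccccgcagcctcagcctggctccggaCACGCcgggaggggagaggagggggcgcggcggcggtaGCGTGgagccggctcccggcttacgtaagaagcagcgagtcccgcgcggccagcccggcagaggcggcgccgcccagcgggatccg
*Egln3*, chr12:54203825-54204124, - strand: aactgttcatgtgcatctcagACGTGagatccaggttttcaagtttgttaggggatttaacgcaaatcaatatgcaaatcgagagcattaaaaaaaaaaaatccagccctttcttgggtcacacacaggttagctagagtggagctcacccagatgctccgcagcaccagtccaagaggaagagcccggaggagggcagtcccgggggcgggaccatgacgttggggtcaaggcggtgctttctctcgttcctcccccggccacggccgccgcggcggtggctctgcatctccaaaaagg
*Bnip3*, chr7:138909457-138909756, - strand: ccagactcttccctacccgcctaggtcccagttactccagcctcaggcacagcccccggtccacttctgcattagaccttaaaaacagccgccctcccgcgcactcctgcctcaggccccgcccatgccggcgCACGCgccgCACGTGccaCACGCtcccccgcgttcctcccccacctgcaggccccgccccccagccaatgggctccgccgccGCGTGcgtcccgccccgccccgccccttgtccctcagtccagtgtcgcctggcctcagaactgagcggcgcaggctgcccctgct
*Pfkfb3*, chr2:11553880-11554179, - strand: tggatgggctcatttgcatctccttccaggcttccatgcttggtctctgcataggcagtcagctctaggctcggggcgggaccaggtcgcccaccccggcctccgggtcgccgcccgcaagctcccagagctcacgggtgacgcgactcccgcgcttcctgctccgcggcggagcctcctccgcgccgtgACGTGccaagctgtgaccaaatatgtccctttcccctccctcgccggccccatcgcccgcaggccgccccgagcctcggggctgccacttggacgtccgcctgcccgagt

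In these windows, counted from the start site, *Ak4* held matches that begin at positions -74 and -36. *Egln3* had 1 match, at position -229, and *Pfkfb3* had 1, at position -60. *Bnip3* had 5 matches, of which those at -108 and -107 are the same CACGTG read on both strands. These letters stood in the window of *Ak4*, which was low in the KO libraries, and in those of *Egln3* and *Bnip3*, which were high there.

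The question was then whether other hypoxia target genes drop in WT replicate 3 as *Ak4* does. *Ak4* in WT replicate 3 stood at 22.0% of the mean of WT replicates 1 and 2, a gap of -2.17 on the log2 scale. Among all genes tested this was the 32nd lowest gap, and the WT range of *Ak4*, 4.79-fold from lowest to highest library, was larger than that of 98.9% of genes tested. The rule used for the comparison was a level in WT replicate 3 at least 2-fold below both other WT libraries. It was met by 183 of the 14084 genes tested (1.3%), while 115 genes (0.817%) were at least 2-fold above both. These counts include genes with 0 counts in all 3 WT libraries, in both directions. Downward they also include genes at 0 in WT replicate 3 and 1 other WT library. Both shares are therefore upper limits. Of the 9 other members, 0 met the 2-fold rule in either direction. A rule of 1.5-fold in place of 2-fold was met downward by *Ankrd37* and *Car9*, which have the lowest counts of the 10 genes, and upward by *Pfkfb3*. Of all genes tested, 2.56% met it downward and 1.87% upward. These shares count genes at 0 in the WT libraries in the same way, so they too are upper limits. No test was run on this gap, because the libraries would be split by the measure itself.

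**Figure D2:**
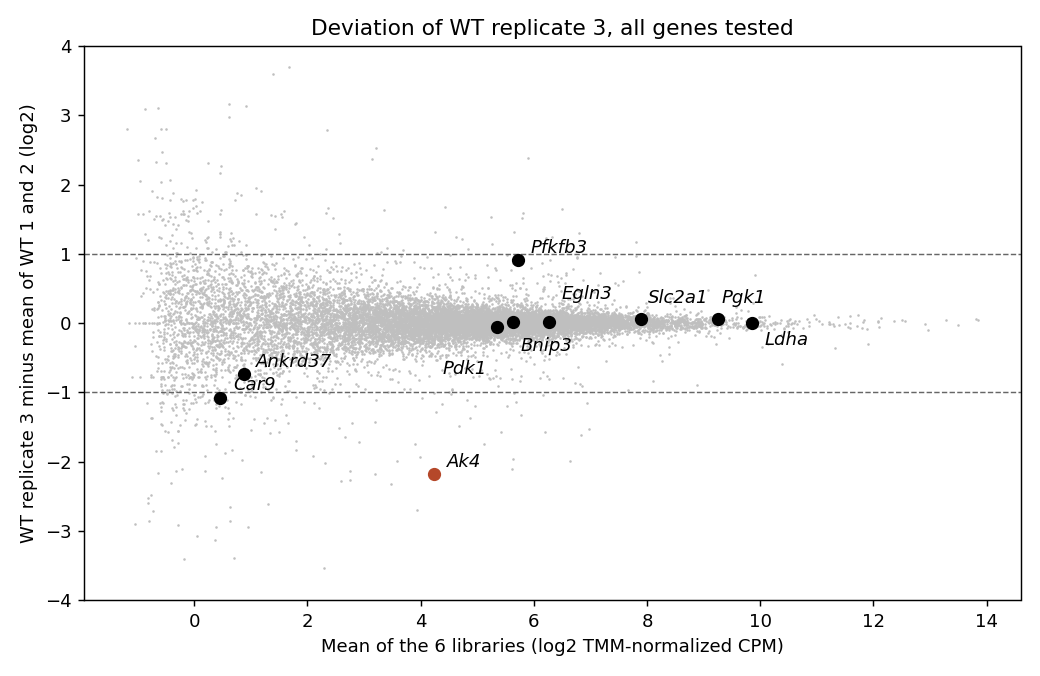
WT replicate 3 minus the mean of WT replicates 1 and 2 (y axis, log2) against the mean level over the 6 libraries (x axis, log2 CPM), for all 14084 genes tested (grey) and the 10 members (large points), with dashed lines at -1 and 1 and 9 genes beyond the axis. *Ak4* lies at -2.17, *Pfkfb3* at 0.91, the low-count genes *Ankrd37* and *Car9* at -0.74 and -1.07, and the remaining 6 between -0.06 and 0.06.

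*Ldha*, *Slc2a1*, *Pdk1*, *Egln3* and *Pgk1* varied less among the WT libraries than the median gene tested, and *Bnip3* varied more. This median is over genes of all levels and was not matched for counts, on which counting error depends. *Ldha*, which turns pyruvate into lactate, had 850, 868 and 857 CPM in WT replicates 1, 2 and 3, a range of 1.02-fold from lowest to highest. *Slc2a1*, the main basal glucose transporter, had 200, 201 and 208 CPM, a range of 1.04-fold. *Egln3*, an oxygen-sensing prolyl hydroxylase that is itself a strong HIF target, had 40.3, 43.1 and 42.2 CPM, a range of 1.07-fold. The median range over all genes tested was 1.15-fold, and WT replicate 3 was within the other WT libraries for *Egln3* and *Ldha* and just above them for *Slc2a1*. *Pgk1*, *Pdk1* and *Bnip3* had WT ranges of 1.07-fold, 1.06-fold and 1.26-fold.

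*Pfkfb3*, whose enzyme makes the sugar bisphosphate that activates phosphofructokinase, varied in another way. WT replicates 1, 2 and 3 had 36.3, 36.8 and 68.7 CPM, and KO replicates 1, 2 and 3 had 69.4, 36.5 and 67.6 CPM. The 6 libraries thus fell at 2 levels that cut across the labels, with WT replicate 3 high, where *Ak4* was low, and KO replicate 2 low. These levels rest on 486 to 1049 counts, and the counting interval of WT replicate 3, 64.4 to 73.2 CPM, does not reach that of WT replicate 2, 33.7 to 40.02 CPM. The WT range of 1.89-fold was larger than that of 92.5% of genes tested and the KO range of 1.90-fold larger than that of 93.5%.

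*Ankrd37* and *Car9* were near the lower limit of what these libraries can resolve. *Ankrd37*, an ankyrin repeat protein with a strong HIF response, had 22, 20 and 12 counts in WT replicates 1, 2 and 3. *Car9*, a carbonic anhydrase of the cell surface, had 18, 33 and 11 counts. In WT replicate 3 this is 0.853 CPM (counting interval 0.441 to 1.49) for *Ankrd37* and 0.782 CPM (0.390 to 1.40) for *Car9*, and the interval overlaps that of WT replicate 1 in both genes, so a difference between those libraries was not detectable at this depth. For *Car9* the interval of WT replicate 2, 1.55 to 3.16 CPM, lies above that of WT replicate 3, whereas for *Ankrd37* it overlaps, at 0.834 to 2.11 CPM.

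The genes most like *Ak4* were looked for across the whole table. Likeness was the root mean square difference between log2 CPM profiles over the 6 libraries, each centred on its own mean, over the 11289 other tested genes whose FPKM averaged 1 or more. The closest was *Ctdsp2*, which encodes a small phosphatase that acts on RNA polymerase II, at 0.32, where the median gene was at 1.21. *Ctdsp2* had 196, 200 and 49.8 CPM in WT replicates 1, 2 and 3 and 44.6, 52.0 and 52.4 CPM in the KO libraries. It was counted at 545 to 2927 per library, so WT replicate 3 matched the KO libraries at a depth well above that of *Ak4*. The next were *Synpo2* (0.49), *Zfp260* (0.64), *Pcdhgb5* (0.67), *Gm28035* (0.71) and *Gpatch4* (0.75).

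In *Gpatch4* the levels of WT replicates 1, 2 and 3 were 34.8, 35.5 and 17.3 CPM against 17.5, 17.9 and 16.8 CPM in the KO libraries. *Synpo2*, an actin-binding protein of muscle, was intermediate in WT replicate 3, with 42.2, 42.0 and 21.5 CPM in the WT libraries and 9.42, 14.1 and 11.6 CPM in the KO libraries. *Pcdhgb5* overlaps 28 listed genes, mostly of its own protocadherin cluster with shared exons, and *Gm28035* and *Synpo2* each overlap 3 on their own strand, so the counts of these genes depend on how shared reads were assigned, which is not stated. The 6 genes are named for their profile alone, and 0 of them is among the other hypoxia targets, glycolytic enzymes, oxygen-sensing genes or adenylate kinases listed for this work. These lists hold 34, 20, 10 and 9 genes, partly shared, against 11289 candidates, so a count of 0 among 6 says little. The other members were all farther off, from 1.07 for *Car9* to 1.82 for *Egln3*.

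**Figure D3:**
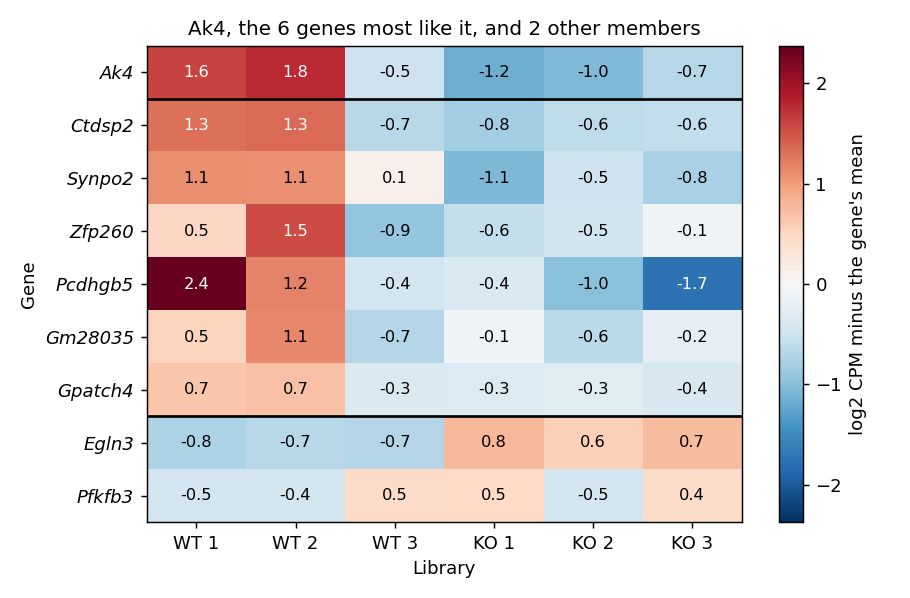
Centred log2 CPM (colour and printed value, each gene minus its mean over the libraries) of *Ak4*, the 6 genes with the most similar profile, and *Egln3* and *Pfkfb3*, in the 6 libraries (x axis). *Ak4* and *Ctdsp2* are high in WT replicates 1 and 2 and low in the other 4 libraries, while *Egln3* is high in the 3 KO libraries.

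The gap of *Ak4* was not seen in the genes around it. Within 1 Mb on either side 9 other genes were tested, a window chosen after the values were seen, and their gaps ran from -0.74 to 0.48. The 2-fold rule was met by 0 of the 9, where at most 1.3% of all genes tested met it. The nearest tested genes are *Jak1*, with 256, 254 and 252 CPM in WT replicates 1, 2 and 3, and *Dnajc6*, with 1.120, 3.00 and 2.13 CPM. No listed gene overlaps *Ak4*. An adenylate kinase pseudogene, *Ak3l2-ps*, had 52 to 91 counts per library without a drop in WT replicate 3 (88, 74 and 86 counts in the WT libraries), and its likeness in sequence to *Ak4* was not examined.

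The sums of cell type markers in WT replicate 3 were close to those of the other WT libraries. The summed level of 12 cardiomyocyte markers was 1109, 1091 and 1076 CPM in WT replicates 1, 2 and 3, and that of 12 endothelial markers was 289, 290 and 281 CPM. The 12 macrophage markers summed to 1645, 1534 and 1594 CPM, and the 6 erythroid markers to at most 0.142 CPM. Marker genes at a count of 0 in every library included *Cd163*, *Elane*, *Higd1b*, *Hbb-bt*, *Cd3e*, *Cd3d*, *Cd8a* and *Nkg7*. Of the tested genes on the marker lists, 0 met the 2-fold rule for WT replicate 3, where at most 1.3% of all genes tested met it.

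Between the labels, most of the other members rose where *Ak4* was low. Of the 9, 7 were higher in the KO libraries by edgeR's quasi-likelihood test (adjusted p below 0.05, adjusted across the whole table), where 17.7% of all genes tested were called higher and 12.5% lower. 0 of the 9 were called lower, also with DESeq2 and at an unadjusted p under 0.05. The same 7 had every KO library above every WT library, which held for 24.7% of genes tested. The median difference over the 9 was 0.42 on the log2 scale, against -0.02 over all genes tested. An exact two-sided permutation test over the libraries gave p = 0.1 for each of the 7, the smallest p that 3 against 3 allows.

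The endothelial markers moved with this result, since their sum was 1540 to 2213 CPM in the KO libraries against 281 to 290 CPM in the WT libraries and 11 of 12 were called higher, with the largest differences in *Kdr* (4.23 on the log2 scale) and *Robo4* (4.09). The sums of the cardiomyocyte markers, 776 to 866 CPM against 1076 to 1109 CPM, and of the macrophage markers, 1258 to 1290 CPM against 1534 to 1645 CPM, were lower in the KO libraries. The macrophage markers were divided, since of 11 tested 6 were called lower, led by *C1qb* (-0.60) and *C1qc* (-0.49) and including *Lyz2*, which makes up most of the sum, and 2 higher, *Cd68* (1.38 on the log2 scale, adjusted p = 3.91e-05 from edgeR) and *Mertk* (1.04, adjusted p = 0.00135). Of the 12 fibroblast markers, 11 were called lower, with a median difference of -0.41 on the log2 scale and the largest falls in *Tcf21* (-0.48) and *Thy1* (-0.47). Of 11 tested cardiomyocyte markers 7 were called lower, with the largest falls in *Myh6* (-0.45) and *Tnnt2* (-0.44). Neutrophil markers summed to 7.201 to 10.2 CPM in the KO libraries against 3.21 to 3.91 CPM. Of 3 tested, 2 were called higher, *S100a8* (2.99, on 3 to 74 counts per library) among them. The other, *Csf3r*, differed by -0.41 and was not called. Mural cell markers summed to 596 to 674 CPM against 846 to 865 CPM, with 3 of 6 tested called lower, led by *Cspg4* (-0.43) and *Pdgfrb* (-0.42), and 1 higher. Over all genes tested, 17.7% were called higher and 12.5% lower. In bulk libraries such as these, fewer cells of a type and less RNA per cell cannot be told apart, and the part of cell makeup in the differences of the hypoxia targets was not tested.

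**Figure D4:**
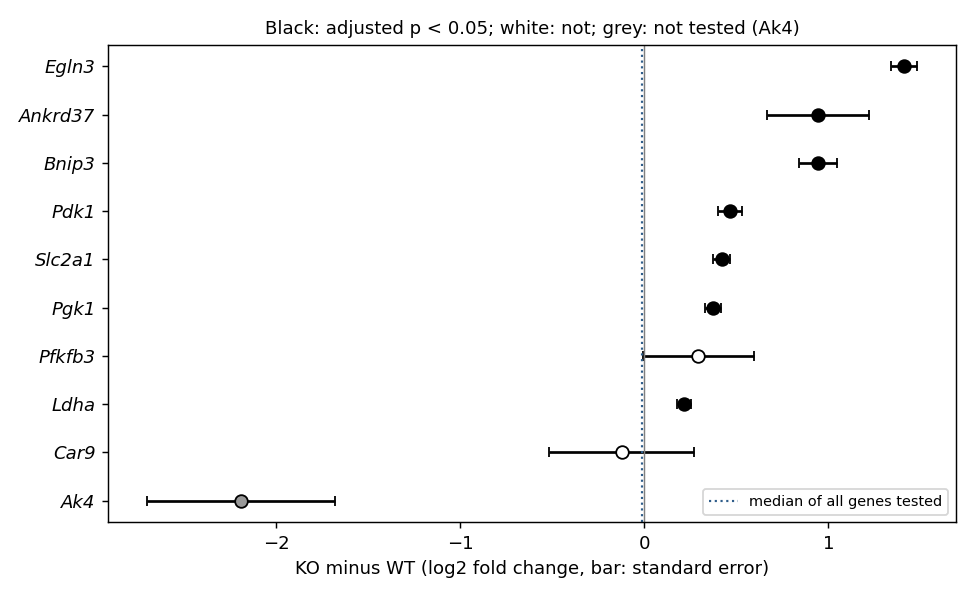
KO minus WT difference of each member (x axis, log2 fold change from edgeR, bars are standard errors), with filled points for an adjusted p under 0.05, open points for genes not called and a grey point for *Ak4*, which was not tested, and a dotted line at the median of all genes tested. *Egln3* is highest at 1.41, 6 further genes are called between 0.22 and 0.95, and *Ak4* is lowest at -2.19.

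Among genes of oxygen sensing, *Egln3* (chromosome 12 from 54178981 to 54203860, - strand) rose most of the 10. It had 118, 101 and 114 CPM in the KO libraries and 40.3, 43.1 and 42.2 CPM in the WT libraries, so the groups were far apart. The difference was 2.66-fold, or 1.41 on the log2 scale (standard error 0.07, adjusted p = 8.64e-06 from edgeR). Its relatives *Egln1* and *Egln2* differed by -0.02 and -0.15 on the log2 scale and were not called (adjusted p = 0.905 and 0.194 from edgeR). On the FPKM scale, which allows levels to be compared between genes, *Egln3* averaged 15.5 in the WT libraries, below the 19.1 of *Egln1* and the 16.9 of *Egln2*, and 42.3 in the KO libraries, above their 19.4 and 15.6.

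Of the mitochondrial genes, *Bnip3* encodes an outer membrane receptor for mitophagy. It had 72.9, 62.5 and 60.7 CPM in the KO libraries and 30.0, 37.8 and 34.1 CPM in the WT libraries. The groups did not overlap, and the difference was 1.92-fold, or 0.94 on the log2 scale (standard error 0.10, adjusted p = 4.01e-04 from edgeR). Its relative *Bnip3l* differed by 0.10 and was not called (adjusted p = 0.536 from edgeR). *Pdk1*, a kinase that switches off pyruvate dehydrogenase, had 44.4, 48.6 and 48.7 CPM in the KO libraries and 34.2, 35.2 and 33.3 CPM in the WT libraries. It rose 1.38-fold (log2 difference 0.47, standard error 0.07, adjusted p = 0.00149 from edgeR), while *Pdk2*, *Pdk3* and *Pdk4* differed by 0.03, -0.11 and -0.48 and were not called.

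Among the genes of glucose uptake and glycolysis, *Slc2a1*, *Pgk1* and *Ldha* rose by less, with little spread within labels, and *Pfkfb3* was not called. *Slc2a1* had 282, 261 and 272 CPM in the KO libraries and 200, 201 and 208 CPM in the WT libraries, a 1.34-fold difference (log2 0.42, standard error 0.05, adjusted p = 4.25e-04 from edgeR). *Pgk1*, a glycolytic kinase that makes ATP, had 695, 677 and 691 CPM in the KO libraries and 508, 539 and 544 CPM in the WT libraries, a 1.30-fold difference (log2 0.37, standard error 0.04, adjusted p = 4.61e-04 from edgeR). *Ldha* had 1015, 1004 and 975 CPM in the KO libraries against 850, 868 and 857 CPM, a 1.16-fold difference (log2 0.22, standard error 0.04, adjusted p = 0.00356 from edgeR). In all 3 genes the lowest KO library was above the highest WT library. Listed pseudogenes of *Pgk1* and *Ldha* took at most 27 and 36 counts per library. *Pfkfb3* had overlapping groups (log2 difference 0.29, standard error 0.30, adjusted p = 0.502 from edgeR), and its difference was 0.66 without WT replicate 3 and 0.55 without KO replicate 2, also not called (adjusted p = 0.110 and 0.162, and 0.110 to 0.803 over all alternatives). It was between 0.13 and 0.17 when any of the other 4 libraries was left out.

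*Ankrd37* had 2.37, 2.10 and 2.77 CPM in the KO libraries and 1.54, 1.36 and 0.853 CPM in the WT libraries. The difference was 0.95 on the log2 scale (standard error 0.28, adjusted p = 0.0340 from edgeR), but the call was lost in 6 of 13 alternatives. Without WT replicate 3 the difference was 0.73 (adjusted p = 0.0947), without KO replicate 3 it was 0.83 (adjusted p = 0.116), and without KO replicate 1 or WT replicate 2 it was 0.97 or 1.01 (adjusted p = 0.0726 and 0.0736), where the adjusted p ran from 0.0147 to 0.116 over all alternatives. The lowest difference, 0.37, came with limma on log2(FPKM + 1), a scale that understates changes of low genes, and was called (adjusted p = 0.0147). Its 12 to 43 counts come from a locus that shares 57 bases with *Ufsp2* and 565 bases with *Lrp2bp*, both on the other strand, which had 583 to 768 and 3 to 15 counts. Whether reads were counted by strand is not given, so reads of such pairs cannot be told apart. *Car9* had 1.56, 1.13 and 1.29 CPM in the KO libraries and 1.26, 2.25 and 0.782 CPM in the WT libraries. These groups overlap, and the difference of -0.12 (standard error 0.39, adjusted p = 0.840 from edgeR) turned to 0.36 without WT replicate 2 (adjusted p = 0.517, and 0.439 to 0.986 over all alternatives). *Car9* also overlaps *Gm12454*, with 5 to 19 counts, on the other strand.

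Other hypoxia targets were found in both directions. On a list of 34 other HIF target genes, all of them tested, 9 were called higher and 9 lower in the KO libraries, where 17.7% and 12.5% of all genes tested were, and the median difference was -0.03 on the log2 scale. The balance moved with the scaling, to 10 higher and 6 lower with library size and to 9 higher and 12 lower with the upper quartile. The balance over all genes tested moved with it, from 2488 higher and 1760 lower to 2739 and 1424 with library size and to 2210 and 2263 with the upper quartile. On the list it was 10 higher and 6 lower without KO replicate 3 and 9 higher and 6 lower without WT replicate 2. The largest rises were in *Ero1l*, an oxidase for disulfide formation in the endoplasmic reticulum (1.07, adjusted p = 2.56e-04 from edgeR), and in *Pfkp*, the platelet form of phosphofructokinase (0.79, adjusted p = 1.60e-04). The largest falls were in *Adm*, which encodes the vasodilator adrenomedullin (-0.43, adjusted p = 8.51e-04), and in *Lox*, which crosslinks collagen (-0.43, adjusted p = 0.00649). Falls of this size were near the medians of the fibroblast, cardiomyocyte and mural cell markers (each -0.41) and of the macrophage markers (-0.38). The medians of the endothelial and neutrophil markers were 2.64 and 1.95. None of the 34 met the 2-fold rule for WT replicate 3, where at most 1.3% of all genes tested met it, and their median gap was 0.01.

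Of the glycolytic enzymes, more rose than fell. Of 20 enzymes tested, a list that holds *Pgk1* and *Ldha*, 11 were called higher and 2 lower, where 17.7% and 12.5% of all genes tested were, with a median difference of 0.24 on the log2 scale. With the upper quartile 11 were higher and 5 lower. The list shares 10 genes with the 34 other hypoxia targets, which are 50% of the enzymes and 29.4% of the targets, so the counts of both are not separate. *Eno2*, the neuronal enolase, rose most (1.78, adjusted p = 2.80e-05 from edgeR), from a mean FPKM of 0.983 in the WT libraries to 3.45 in the KO libraries, and *Pfkp* followed. *Hk3*, the hexokinase of myeloid cells, and *Gapdh* fell (-0.49 and -0.24, adjusted p = 0.0121 and 0.0435), and *Gapdh* has many processed copies that could share its reads. Here too 0 genes met the 2-fold rule for WT replicate 3, where at most 1.3% of all genes tested met it.

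Among 10 genes of oxygen sensing, *Egln3* and *Hif1a* were called higher, a share near the 17.7% of all genes tested. *Hif1a*, the oxygen-labile subunit itself, rose by 0.40 on the log2 scale (standard error 0.06, adjusted p = 0.00169 from edgeR), while *Epas1*, *Arnt* and *Vhl* differed by 0.07, -0.13 and 0.07 and were not called. None was called lower with edgeR or with DESeq2 or at an unadjusted p under 0.05. The mRNA level of *Hif1a* says nothing of its protein, which is set mainly by degradation.

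**Figure D5:**
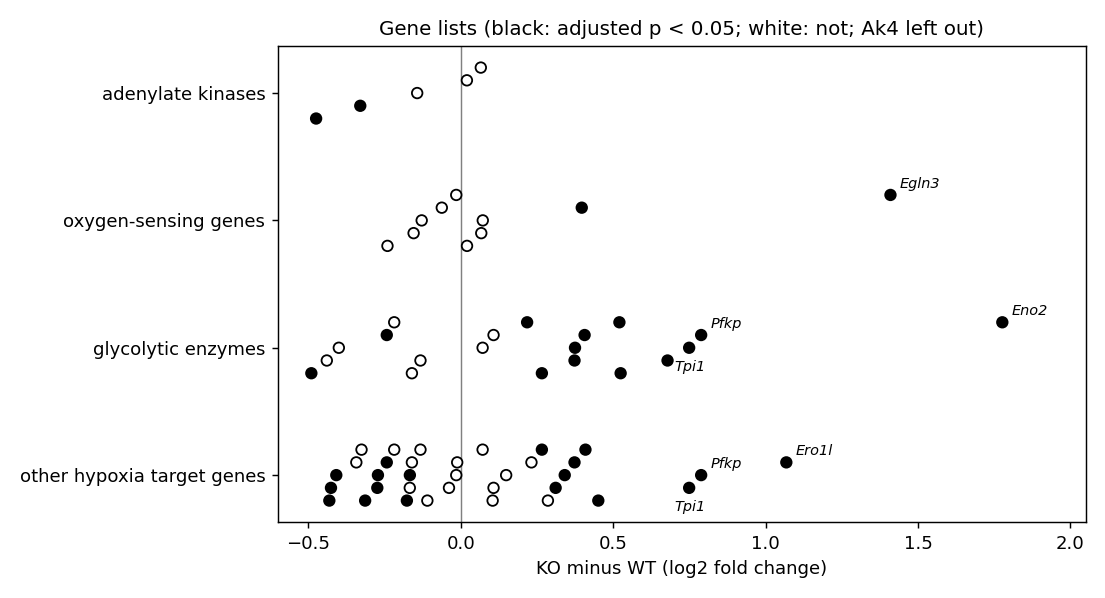
KO minus WT difference (x axis, log2 fold change) of each tested gene of 4 lists, filled for an adjusted p under 0.05 from edgeR and open otherwise, with *Ak4* left out and the vertical position within a list without meaning. The other hypoxia targets have 9 called on each side with TMM scaling (10 higher and 6 lower with library size, 9 higher and 12 lower with the upper quartile), and 11 of 20 glycolytic enzymes lie to the right as called.

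The other adenylate kinases were steady in WT replicate 3. Of 9 listed genes, 6 were tested, *Ak4* included. *Ak5* and *Ak1* were called lower in the KO libraries (-0.47 and -0.33 on the log2 scale, adjusted p = 0.00249 and 0.00559 from edgeR), where 12.5% of all genes tested were, and *Ak3* and *Ak6* differed by -0.14 and 0.02 and were not called. None was called higher with edgeR or DESeq2, or at an unadjusted p under 0.05. The gaps of these genes in WT replicate 3 ran from -0.03 for *Ak5* to 0.18 for *Ak1*. On the FPKM scale *Ak4* averaged 5.19 in the WT libraries and 1.15 in the KO libraries, below *Ak3*, the other kinase of the mitochondrial matrix, at 21.2 and 19.7. Of 14 tested paralogs of the other members, 2 were called higher, a share not above the 17.7% of all genes tested. These were *Car2* (1.92, adjusted p = 0.00200 from edgeR) and *Pfkfb2* (0.41, adjusted p = 0.0378). Called lower were 0 of the 14 with edgeR and 0 with DESeq2, and 3 at an unadjusted p under 0.05. *Pgk2* and *Ldhc* had a count of 0 in every library.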

How the data were processed

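The authors sequenced poly(A)-selected stranded libraries as paired-end reads and mapped them to mm10 (GRCm38.p4) with HISAT2. The submitters' processing notes also name edgeR, without its role, and the counting tool, annotation release and strand setting are not given in the sources used here. The deposited counts are whole numbers per gene without normalization, and the deposited FPKM values are scaled by the authors to gene length and library total.

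R 4.3.3 and edgeR 4.0.16 were used on the counts of all 6 libraries together: filterByExpr, TMM scaling, then glmQLFit and glmQLFTest with Benjamini-Hochberg adjustment and no covariate. The filter left 14084 of 20854 genes with any count. Standard errors are the log2 fold change over the root of the test statistic. Log2 CPM used a prior count of 0.5. Members and lists were chosen with earlier results of these data known. Genes are named by rules: all members, the 2 largest called rises and falls of each list at a mean FPKM of at least 1, the paralogs, genes of the lists at least 2-fold lower in WT replicate 3, *Kdm5b*, and the 6 genes most like *Ak4*. *Epas1*, *Arnt*, *Vhl*, *Lyz2*, *Csf3r* and the neighbours of *Ak4* were named after their values were seen. Alternatives were DESeq2 1.42.0, limma 3.58.1 on log2(FPKM + 1), other scalings and filters, the replicate number as a block, and each library left out. Fits were tested on simulated data.

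No pair of libraries of 1 label looked like the same library deposited again, since 22.4% to 31.8% of genes differed between them (unadjusted p under 0.05). The p came from a chi-square approximation to a binomial test of the counts, which covers counting error only. Depth limits low genes: a count of 0 allows 3 counts, or 0.196 to 0.249 CPM. Python 3.11.15 with matplotlib 3.10.9 made the figures.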

Additional observations from a re-analysis of the deposited data

How the results depend on the processing

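The calls of *Egln3*, *Bnip3*, *Pdk1*, *Slc2a1*, *Pgk1* and *Ldha* kept their direction and their side of the threshold under all 13 alternatives, with the highest adjusted p at 0.0205 for *Ldha*. The count of called members was 7 or 6 in each, and the gene lost was *Ankrd37*. *Car9* ran from -0.41 without WT replicate 3 to 0.36 without WT replicate 2, where it changed sign. The *Ak4* difference ran from -2.63 to -1.84 over the libraries left out and was -1.35 with limma on log2(FPKM + 1), a scale that understates changes of low genes. The *Ak4* gap in WT replicate 3 kept its size under each scaling and with FPKM, and a rule of 1.5-fold gave 2 members in place of 0.

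The number of glycolytic enzymes called lower was 1 with library size, 5 with the upper quartile and 4 with the replicate block, and 1 to 3 with a library left out, in place of 2. Oxygen-sensing genes called lower were 0 or 1 with a library left out. Over all genes tested, 1131 were lower without KO replicate 3, in place of 1760.

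Same-numbered libraries did not deviate together (correlations of -0.000182, 0.00395 and 0.0365). With 3 libraries per label this cannot exclude that the numbers pair the samples. With the replicate block 6 members were called higher, and *Ankrd37* had an adjusted p of 0.0725 and a difference of 0.96. With 3 libraries per label and 11 to 43 counts, *Ankrd37* and *Car9* are limited by depth.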
